A study of Mus musculus with 12 samples.

Results

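The genes of prostaglandin and leukotriene synthesis were examined in the ischemic brain. The 10 genes were Ptgs1, Ptgs2, Ptges, Ptgds, Hpgds, Alox5, Alox5ap, Ltc4s, Ptger2 and Ptger4, taken by name from a table of read counts on 39756 genes. All 10 had enough counts to be among the 17558 genes tested. Ischemic hemispheres of 12 male C57BL/6J mice aged 9 to 10 weeks were used for RNA sequencing, with 4 mice in each of 3 groups. Sham mice had sham surgery and received saline. In Vehicle mice, the middle cerebral artery, which feeds much of the hemisphere, was occluded for 45 min and then reopened (tMCAO), and they also received saline. LJP mice underwent the same occlusion and received Laminaria japonica polysaccharide, a sulfated polysaccharide of a brown seaweed. Saline or LJP was given into the stomach once a day for 14 days before surgery and continued afterward. After a comparison of 3 doses the study went on with the middle one, LJP-M. Neither the labels nor the study's methods state the dose or the time of collection for the sequenced mice.

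Both families of lipid mediators are made from arachidonic acid that phospholipases release from membranes. The cyclooxygenases Ptgs1 and Ptgs2 turn it into the unstable prostaglandin H2, and a terminal synthase then decides whether prostaglandin E2, prostaglandin D2 or another prostanoid is formed. In the leukotriene branch, 5-lipoxygenase (Alox5) acts with its activating protein (Alox5ap), and Ltc4s joins the product to glutathione. In the brain, Ptgs2 is present in neurons and inducible by activity and inflammation, Ptgds is an abundant product of leptomeninges, choroid plexus and oligodendrocytes, and Alox5 and Alox5ap are best known from myeloid cells.

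The letters just before the start of 1 RefSeq transcript per gene are shown for 4 members that rose after occlusion, since Ptgs2 is the textbook inducible cyclooxygenase, Ptgs1 its more steadily expressed relative, and Ptges and Alox5 rose about 9-fold. Sequences are from RefSeq on GRCm38.p6, written 5′ to 3′ on the gene's strand, 250 bases each, and capitals mark the motifs searched. Ptgs2 is at chr1:150099781-150100030 on the plus strand, Ptgs1 at chr2:36230176-36230425 on the plus strand, Ptges at chr2:30903298-30903547 on the minus strand and Alox5 at chr6:116461179-116461428 on the minus strand. The stretches of Ptgs1 and Ptges lie inside the gene spans that the deposited table lists, which reach further upstream.
Ptgs2: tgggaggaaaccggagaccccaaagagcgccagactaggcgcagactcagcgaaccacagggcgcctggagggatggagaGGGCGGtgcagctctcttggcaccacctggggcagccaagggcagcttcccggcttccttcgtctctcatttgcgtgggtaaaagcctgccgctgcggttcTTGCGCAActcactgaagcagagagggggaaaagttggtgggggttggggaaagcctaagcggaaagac
Ptgs1: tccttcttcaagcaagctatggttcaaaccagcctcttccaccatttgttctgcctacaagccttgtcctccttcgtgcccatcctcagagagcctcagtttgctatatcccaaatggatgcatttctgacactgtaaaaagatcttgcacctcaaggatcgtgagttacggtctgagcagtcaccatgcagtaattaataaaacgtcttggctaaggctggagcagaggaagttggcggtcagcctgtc
Ptges: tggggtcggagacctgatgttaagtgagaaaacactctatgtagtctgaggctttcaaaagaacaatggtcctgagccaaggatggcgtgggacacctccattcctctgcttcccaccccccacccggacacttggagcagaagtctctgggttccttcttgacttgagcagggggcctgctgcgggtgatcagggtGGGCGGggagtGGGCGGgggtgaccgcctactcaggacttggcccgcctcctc
Alox5: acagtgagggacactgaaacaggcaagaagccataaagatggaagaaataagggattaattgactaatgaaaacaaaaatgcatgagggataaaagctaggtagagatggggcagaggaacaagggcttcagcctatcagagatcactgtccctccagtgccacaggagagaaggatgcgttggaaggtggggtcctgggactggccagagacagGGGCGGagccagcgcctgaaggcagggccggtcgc
A stretch of 22 bases just inside the Ptgs2 transcript, chr1:150100039-150100060 on the plus strand, holds another pair of motifs.
Ptgs2 transcribed stretch: cactACGTCACGTGgagtccgc

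Motifs were searched on both strands in windows of 300 bases, from 250 before the start to 50 after it, in 32851 promoters. Of the members, 9 had an entry (all but Alox5ap). The Ptgs2 window held TTGCGCAA, the palindrome of C/EBP factors, at position -69, a match present in 0.183% of all promoters. It also held ACGTCA, the core of a cyclic AMP response element (7.51% of promoters), at position 13 and overlapping it CACGTG, an E-box (7.15%), at position 17, as well as GGGCGG, a GC box (35.7%), at position -170. No motif searched was found in the windows of Ptgs1, Ptgds, Hpgds, Ltc4s and Ptger2. GGGCGG was found 2 times in Ptges, once in Alox5 at -35 and 4 times in Ptger4, while the match to TATAAA that 13.6% of promoters hold was in none of the 9. These are matches of letters and not measured binding. Only exact copies of the strings named here were searched, so an absence says nothing about variant sites or other elements.

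Total counts per mouse ranged from 17960353 to 22216315. Levels are given as CPM, counts scaled to 1000000 counts of the TMM-normalized library, and 3 counts, the limit that a count of 0 allows, came to 0.129 to 0.173 CPM. Markers of neurons (summed 5429 to 9601 CPM), astrocytes (3587 to 5625 CPM) and oligodendrocytes (4626 to 6372 CPM) were present in every mouse, as brain tissue should give. Vehicle mice 1 and 2 stood apart from the other mice. The summed level of 8 neutrophil markers was 165 and 40.5 CPM in them, 0.754 and 5.55 CPM in Vehicle mice 3 and 4, and at most 1.11 CPM in Sham and LJP mice, and the sum of 8 monocyte and macrophage markers was 153 and 271 CPM against 29.0 and 49.8 CPM. In tissue as a whole, fewer cells of a type and less RNA per cell cannot be told apart. Lung markers, which the brain should lack, summed to 10.3 to 18.5 CPM in Sham and Vehicle mice and to 1.28 to 2.68 CPM in LJP mice, with 5 of the 8, Scgb1a1 among them, at 0 in every LJP mouse.

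Scaled by transcript length, the members spanned more than 3 orders of magnitude in the Sham group. Ptgds stood first with 544 ± 29.0 RPKM (CPM per kilobase of transcript; SD, n = 4), followed by Ptgs1 with 6.79 ± 0.484, Ltc4s with 5.45 ± 0.800 and Alox5ap with 2.36 ± 0.368. Ptgs2 had 1.46 ± 0.180 RPKM, Hpgds 1.09 ± 0.135, Ptges 1.04 ± 0.0954, Ptger4 0.372 ± 0.125, Alox5 0.310 ± 0.0412 and Ptger2 0.135 ± 0.0959 (SD, n = 4 for each). Ptgs1 and Ltc4s overlapped in their RPKM ranges over the Sham mice, as did Hpgds and Ptges, Ptger4 and Alox5, and also Ptger4 (0.226 to 0.501 RPKM) and Ptger2 (0.0422 to 0.253 RPKM), so that their order is not fixed by these data. The place of Ptgs1 rested on the length used. With the 12411 bases that the deposited table lists for it in place of the 2867 bases of its coding transcript in GENCODE, Ptgs1 came to 1.57 ± 0.112 RPKM (SD, n = 4), and its range then overlapped with that of Ptgs2.

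**Figure D1:**
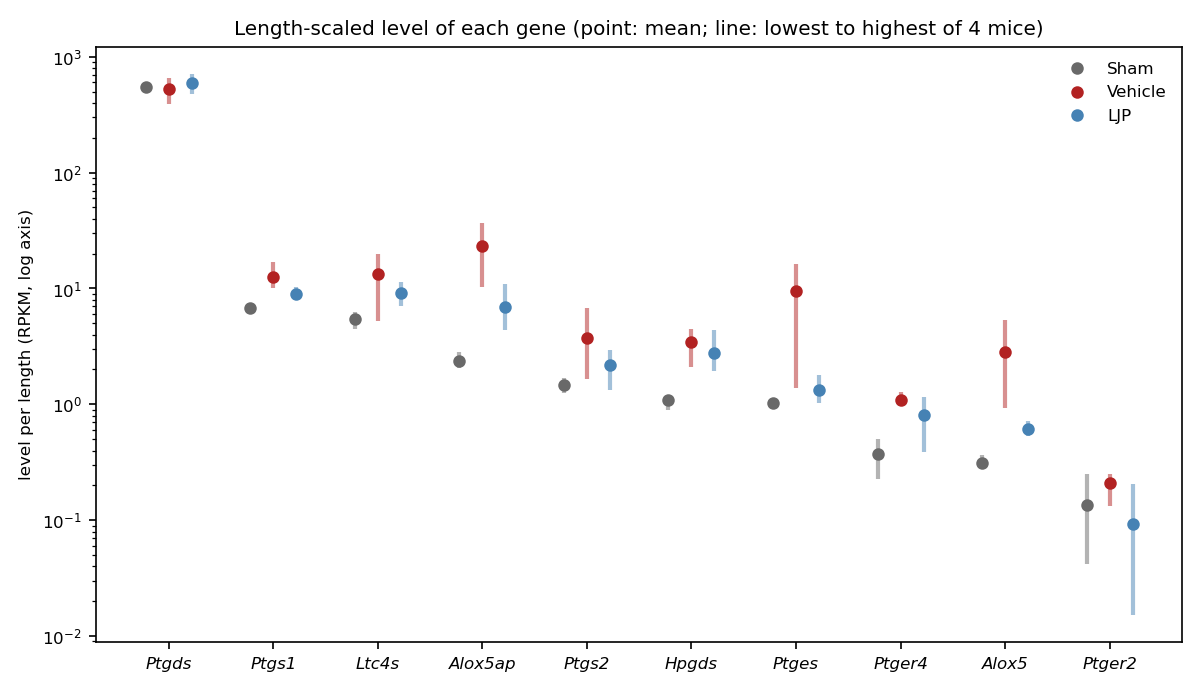
Length-scaled level of each gene (RPKM, log axis), using the length of its GENCODE transcript, in Sham (grey), Vehicle (red) and LJP (blue) mice, ordered by the Sham mean; points are means and lines run from the lowest to the highest of 4 mice. Ptgds lies far above the other genes in every group, and in the Vehicle group Alox5ap (23.2 RPKM) has the second highest mean.

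The first comparison asked how the pathway differed after occlusion, Vehicle against Sham. Transcripts of 8 of the 10 genes rose (edgeR's quasi-likelihood test, adjusted p below 0.05) and none fell, while 22.7% of all genes tested were called higher and 39.9% in either direction. The median log2 fold change of the 10 was 1.45, beside 0.00 for all genes. The leukotriene genes Alox5ap and Alox5 and the prostaglandin E synthase Ptges rose about 9-fold or more, and Ptgds, by far the most abundant, had a log2 difference of -0.06 that did not pass. In 6 of the 10, Ptgs1, Ptges, Hpgds, Alox5, Alox5ap and Ptger4, every Vehicle mouse lay above every Sham mouse, as in 20.7% of all genes tested.

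**Figure D2:**
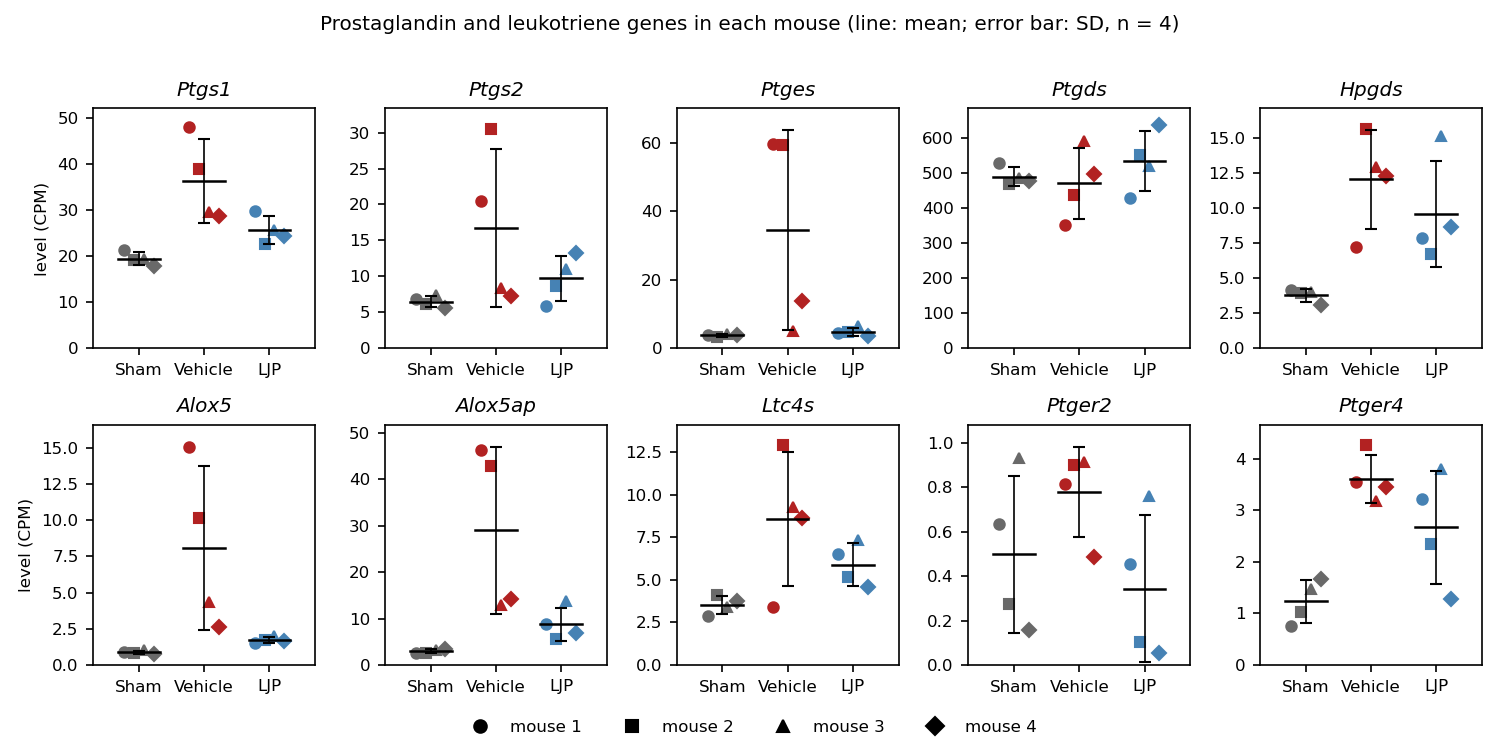
Level of each of the 10 genes in each mouse (CPM, linear axis from 0), with the group mean as a line and the SD as an error bar (n = 4 mice); symbols mark the mouse number within its group, which pairs nothing across groups. Ptges, Alox5 and Alox5ap are highest in Vehicle mice 1 and 2, whereas Hpgds and Ltc4s are lowest in Vehicle mouse 1 within that group.

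Of the cyclooxygenases, Ptgs1 (Entrez Gene 19224, chromosome 2 from 36216742 to 36258593) was measured at 21.3, 19.2, 19.3 and 18.0 CPM in Sham mice 1 to 4. It was measured at 48.1, 38.9, 29.6 and 28.7 CPM in Vehicle mice 1 to 4, and at 29.8, 22.7, 25.7 and 24.4 CPM in LJP mice. All Vehicle mice exceeded all Sham mice, and the rise was 1.87-fold (log2 0.90, standard error 0.15, edgeR adjusted p = 0.00119). LJP mice also lay above every Sham mouse, although the LJP against Sham difference of 0.40 on the log2 scale did not pass (edgeR adjusted p = 0.180). Ptgs2 (Entrez Gene 19225, chromosome 1 from 150100031 to 150108234), the inducible enzyme and the target of many anti-inflammatory drugs, was less uniform. Its levels in Sham mice were 6.80, 6.16, 7.45 and 5.60 CPM, and in Vehicle mice 20.5, 30.5, 8.40 and 7.33 CPM. In LJP mice they were 5.90, 8.74, 11.0 and 13.2 CPM. Vehicle mice 1 and 2 were high, while Vehicle mouse 4 lay below the highest Sham mouse. The mean rise was 2.57-fold (log2 1.36, standard error 0.40, edgeR adjusted p = 0.0182), and it did not pass without Vehicle mouse 2 (log2 0.89, edgeR adjusted p = 0.0557).

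The balance between the cyclooxygenases was read as the log2 ratio of Ptgs2 to Ptgs1 in each mouse, from CPM plus 0.5. It was -1.58, -1.57, -1.32 and -1.60 in Sham mice, -1.21, -0.35, -1.76 and -1.90 in Vehicle mice, and -2.24, -1.33, -1.18 and -0.86 in LJP mice. The 3 groups overlapped, and both groups with occlusion were more spread than the Sham group. The mean was -1.52 ± 0.134 in Sham, -1.30 ± 0.704 in Vehicle and -1.40 ± 0.592 in LJP mice (SD, n = 4). No difference passed a two-sided exact permutation test, with 0.21 for Vehicle minus Sham (p = 0.714), -0.10 for LJP minus Vehicle (p = 0.886) and 0.11 for LJP minus Sham (p = 0.714), each with an adjusted p of 0.886 over the 3 comparisons. All 3 differences changed sign when a single mouse was left out, to -0.11 for Vehicle minus Sham without Vehicle mouse 2, to 0.22 and 0.18 for LJP minus Vehicle without Vehicle mouse 2 and without LJP mouse 1, and to -0.07 for LJP minus Sham without LJP mouse 4.

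Of the terminal prostaglandin synthases, Ptges and Hpgds were called higher in Vehicle against Sham and Ptgds was not. Ptges (Entrez Gene 64292, chromosome 2 from 30889471 to 30931020), the inducible microsomal prostaglandin E synthase, was measured at 3.86, 3.32, 4.16 and 3.78 CPM in Sham mice and at 59.7, 59.5, 5.01 and 13.9 CPM in Vehicle mice. In LJP mice it was at 4.50, 4.70, 6.53 and 3.73 CPM. Vehicle mice 1 and 2 were far above all others, whereas Vehicle mouse 3 lay below LJP mouse 3. Against Sham, the Vehicle rise was 9.13-fold (log2 3.19, standard error 0.62, edgeR adjusted p = 0.00219), and it was 2.79 on the log2 scale without Vehicle mouse 1 and also without Vehicle mouse 2. A predicted gene on the opposite strand of the same region, Gm52550, had at most 3 counts in any mouse.

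Both prostaglandin D synthases were detected. Ptgds (Entrez Gene 19215, chromosome 2 from 25466709 to 25470110), the lipocalin-type enzyme, was at 528, 469, 486 and 478 CPM in Sham, at 353, 438, 593 and 498 CPM in Vehicle and at 428, 552, 521 and 638 CPM in LJP mice. The 3 groups overlapped. Its Vehicle against Sham log2 difference was -0.06 (standard error 0.15, edgeR adjusted p = 0.770) and turned to 0.02 with scaling by library size alone and to 0.06 without Vehicle mouse 1. Choroid plexus markers, which mark one source of Ptgds in textbooks, summed to 23.2 to 30.2 CPM in Vehicle mice 1 and 2 and LJP mice 1, 2 and 4, to 33.6 CPM in Sham mouse 1 and to 398 to 928 CPM in the other 6 mice, and their part in the Ptgds values was not tested.

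Hpgds (Entrez Gene 54486, chromosome 6 from 65117293 to 65144981), the hematopoietic enzyme found in microglia and other immune cells, was at 4.15, 3.92, 4.00 and 3.11 CPM in Sham mice. It was at 7.26, 15.7, 13 and 12.3 CPM in Vehicle mice, and at 7.90, 6.75, 15.2 and 8.64 CPM in LJP mice. All mice with occlusion lay above all Sham mice, and the Vehicle and LJP ranges overlapped almost wholly. The rise was 3.18-fold in Vehicle (log2 1.67, standard error 0.28, edgeR adjusted p = 0.00104) and 2.53-fold in LJP (log2 1.34, standard error 0.28, edgeR adjusted p = 0.0158). The LJP against Sham call was lost without Sham mouse 2 (edgeR adjusted p = 0.0507) or Sham mouse 4 (0.0577). The sum of 8 microglia markers was 227 to 234 CPM in Sham, 287 to 740 CPM in Vehicle, with Vehicle mouse 1 lowest as it was for Hpgds, and 413 to 802 CPM in LJP mice. In both comparisons with Sham, 5 of the 8 were called higher, beside 22.7% of all genes for Vehicle and 3.85% for LJP. The part of these markers in the Hpgds result was not tested.

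In the leukotriene branch, Alox5 (Entrez Gene 11689, chromosome 6 from 116410071 to 116461178), the enzyme that commits arachidonic acid to leukotrienes, was scarce in Sham mice at 0.865, 0.817, 1.04 and 0.777 CPM. It was at 15.1, 10.1, 4.36 and 2.64 CPM in Vehicle mice and at 1.5, 1.74, 2.01 and 1.67 CPM in LJP mice. The 3 groups did not overlap at all, with Sham lowest, LJP between and Vehicle highest. The Vehicle rise against Sham was 9.18-fold (log2 3.20, standard error 0.47, edgeR adjusted p = 0.000504). A predicted gene on the opposite strand within it, Gm38880, had 0 to 6 counts in Sham, 4 to 27 in Vehicle and 0 to 7 in LJP mice. Since the strand setting of the counting is not given in the sources used here, reads of the 2 genes might not be separable. Alox5 had 15 to 19 counts in Sham, 49 to 332 in Vehicle and 30 to 37 in LJP mice.

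Alox5ap (Entrez Gene 11690, chromosome 5 from 149265004 to 149288153), the membrane protein that presents arachidonic acid to Alox5, was at 2.60, 2.56, 3.12 and 3.52 CPM in Sham mice. It was at 46.2, 42.9, 12.9 and 14.1 CPM in Vehicle mice, and at 8.86, 5.52, 13.7 and 6.86 CPM in LJP mice. Every mouse with occlusion exceeded every Sham mouse, and LJP mouse 3 lay above Vehicle mouse 3. Its rise of 9.82-fold (log2 3.30, standard error 0.45, edgeR adjusted p = 0.000350) differed from those of Alox5 and Ptges by less than their standard errors. Ltc4s (Entrez Gene 17001, chromosome 11 from 50236461 to 50238532), which makes leukotriene C4, was at 2.88, 4.09, 3.40 and 3.78 CPM in Sham and at 3.40, 12.9, 9.31 and 8.62 CPM in Vehicle mice. In LJP mice it was at 6.54, 5.16, 7.34 and 4.57 CPM. Vehicle mouse 1, which had the highest Alox5 and Alox5ap, stayed within the Sham range for Ltc4s. The rise was 2.42-fold (log2 1.27, standard error 0.32, edgeR adjusted p = 0.00843), and it was 1.54 on the log2 scale without Vehicle mouse 1 and 0.99 without Vehicle mouse 2, still called in both cases.

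Of the prostaglandin E2 receptors that raise cyclic AMP, Ptger4 (Entrez Gene 19219, chromosome 15 from 5233399 to 5244187) was at 0.750, 1.04, 1.48 and 1.66 CPM in Sham mice. It was at 3.54, 4.25, 3.18 and 3.45 CPM in Vehicle mice and at 3.22, 2.35, 3.81 and 1.28 CPM in LJP mice. The Vehicle mice were close together and above all Sham mice, whereas LJP mouse 4 fell in the Sham range. The Vehicle rise was 2.91-fold (log2 1.54, standard error 0.33, edgeR adjusted p = 0.00364). Ptger2 (Entrez Gene 19217, chromosome 14 from 44988111 to 45003820) was near the limit of detection, with 3 to 17 counts in Sham, 9 to 21 in Vehicle and 1 to 14 in LJP mice. Its group means were 0.498 ± 0.353 CPM in Sham, 0.780 ± 0.201 CPM in Vehicle and 0.343 ± 0.331 CPM in LJP mice (SD, n = 4). No difference in Ptger2 was detectable at this depth (Vehicle against Sham, log2 0.65, standard error 0.62, edgeR adjusted p = 0.418).

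**Figure D3:**
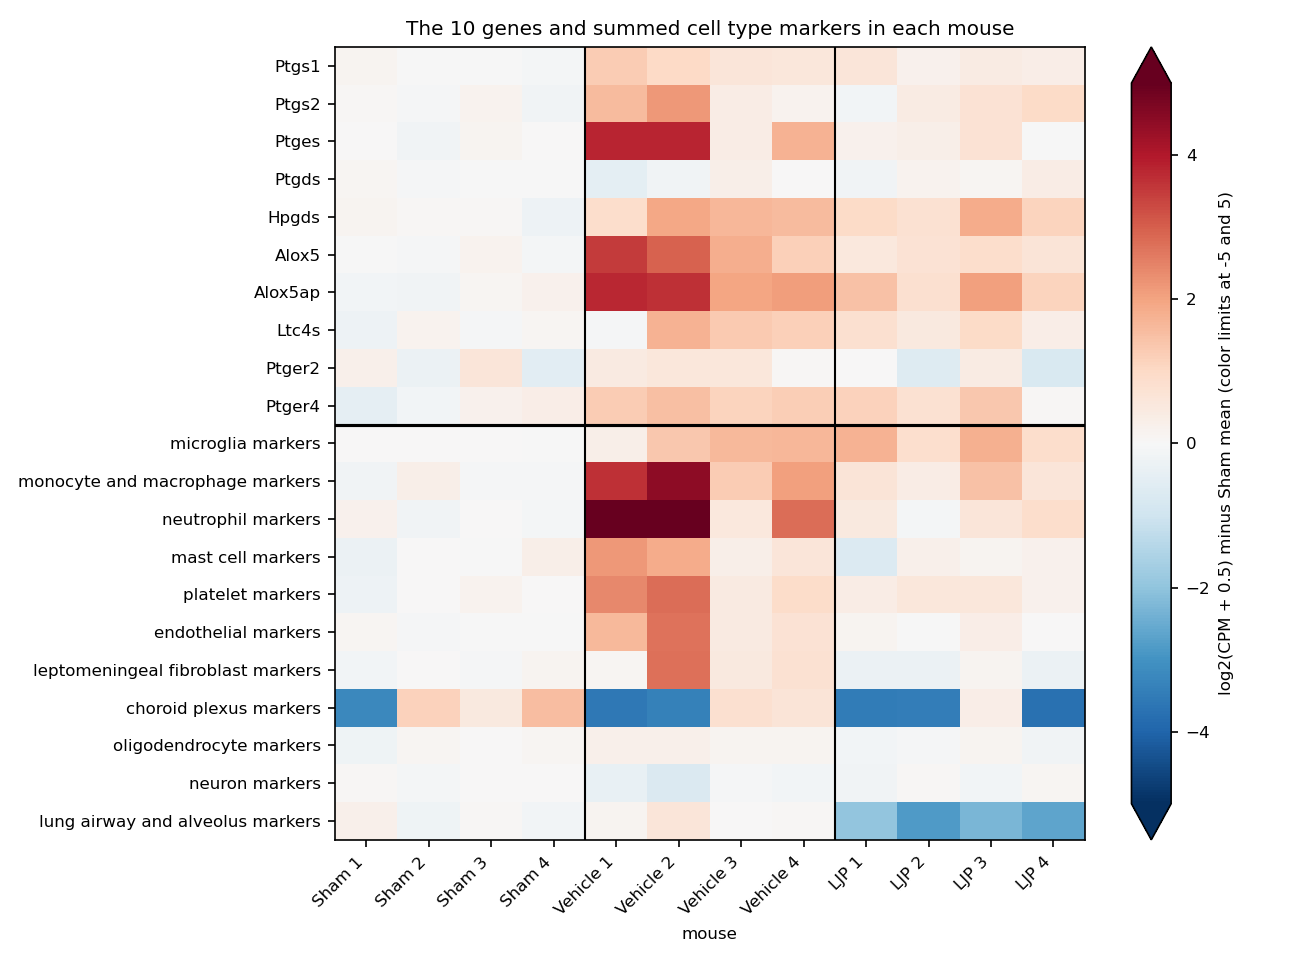
Level of the 10 genes (top) and summed level of 11 cell type marker lists (bottom) in each mouse, as log2(CPM + 0.5) minus the Sham mean, with colors limited at -5 and 5. In Vehicle mice 1 and 2, the red of Ptges, Alox5 and Alox5ap stands in the same columns as that of the monocyte and macrophage and the neutrophil markers, while within the Vehicle group Hpgds and Ltc4s are palest in mouse 1.

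The mice that were high for Ptges, Alox5, Alox5ap and Ptgs1 were thus Vehicle mice 1 and 2, the same that were high for neutrophil and macrophage markers. Platelet markers summed to 40.3 and 52.9 CPM in these 2 mice and to at most 14 CPM in the other 10, and endothelial markers to 690 and 1453 CPM and at most 366 CPM. Mast cell markers reached 9.26 and 7.43 CPM against at most 2.86 CPM, with Cpa3, Fcer1a and Mrgprb1 at 0 in all Vehicle mice. That sum was nearly all Hdc, the enzyme that makes histamine, named after its values were seen, with 199, 169, 34 and 52 counts in Vehicle mice, while the other 7 mast cell markers had at most 4 counts in any mouse. The part of these cell types in the results was not tested. The 8 neutrophil markers were all below the count filter. All 7 monocyte and macrophage markers tested were called higher in Vehicle against Sham, beside 22.7% of all genes. The calls of the 8 genes did not rest on 1 of the 2 mice except for Ptgs2, since without Vehicle mouse 1 all 8 were still called and without Vehicle mouse 2 the other 7.

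The second comparison, LJP against Vehicle, asked whether the treatment moved the pathway after occlusion. None of the 10 genes passed (edgeR adjusted p below 0.05), where 0.0228% of all genes did. These were 4 genes, and 3 of them were on the lung marker list. At an unadjusted p below 0.05 there were 4, all lower in LJP, Ptges, Alox5, Alox5ap and Ptgs1, where 29.7% of all genes reached that level in either direction. DESeq2 called the same 4 lower, beside 9.97% of all genes that it called lower. With the cutoffs named in the study's methods (a log2 fold change beyond 0.58 in size and a raw p under 0.01), 3 members were lower in the edgeR fit (Ptges, Alox5 and Alox5ap), as were 5.89% of all genes. The median log2 fold change of the 10 was -0.66, beside 0.00 for all genes, and 9 of the 10 lay below 0, as did 50.2% of all genes.

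The values of single genes in LJP against Vehicle differed in size. Ptges had the largest difference, -2.83 on the log2 scale (standard error 0.60), followed by Alox5 with -2.22 (standard error 0.44) and Alox5ap with -1.74 (standard error 0.41), and the edgeR adjusted p was 0.0678 for all of them. Ptgs1 differed by -0.50 (standard error 0.15, edgeR adjusted p = 0.0750) and Ptgs2 by -0.79 (standard error 0.39, edgeR adjusted p = 0.198), which became -0.32 without Vehicle mouse 2 (edgeR adjusted p = 0.593). Alox5 was the only member in which every LJP mouse lay below every Vehicle mouse, as in 5.91% of all genes tested. For Ltc4s the difference was -0.54 (-0.26 without Vehicle mouse 2), for Ptger4 -0.43, for Hpgds -0.33 and for Ptger2 -1.17, with edgeR adjusted p-values between 0.233 and 0.407. The Ptger2 value was -1.85 without LJP mouse 3 and -0.83 without LJP mouse 4, and it passed in neither case. Ptgds was the only gene with a value above 0, at 0.18 (edgeR adjusted p = 0.410).

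Whether members were called in LJP against Vehicle depended on which Vehicle mice were compared. The log2 differences of Ptges, Alox5, Alox5ap and Ptgs1 stayed below 0 whichever Vehicle mouse was left out. Without Vehicle mouse 3, 4 members, Ptges, Alox5, Alox5ap and Ptgs1, were called lower, with log2 differences of -3.18, -2.42, -1.97 and -0.58 and edgeR adjusted p-values of 0.00740, 0.0108, 0.0111 and 0.0246, where 13.2% of all genes were called lower. Without Vehicle mouse 4 the same 4 were called, with -3.09, -2.51, -1.96 and -0.60 and edgeR adjusted p-values of 0.0309 for the first 3 and 0.0340 for Ptgs1, where 8.54% of all genes were called lower. Without Vehicle mouse 1 the log2 differences were -2.43, -1.73, -1.42 and -0.34 and without Vehicle mouse 2 they were -2.43, -2.09, -1.49 and -0.47, and no member was called in either case. Among the marker sums, monocyte and macrophage markers were at 15.1 to 33.2 CPM in LJP mice against 29.0 to 271 CPM in Vehicle mice and endothelial markers at 218 to 277 CPM against 304 to 1453 CPM. Microglia markers were at 413 to 802 CPM against 287 to 740 CPM and neuron markers at 8029 to 9601 CPM against 5429 to 8495 CPM, and the lung markers separated LJP from all other mice. The part of any of these in the differences was not tested.

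**Figure D4:**
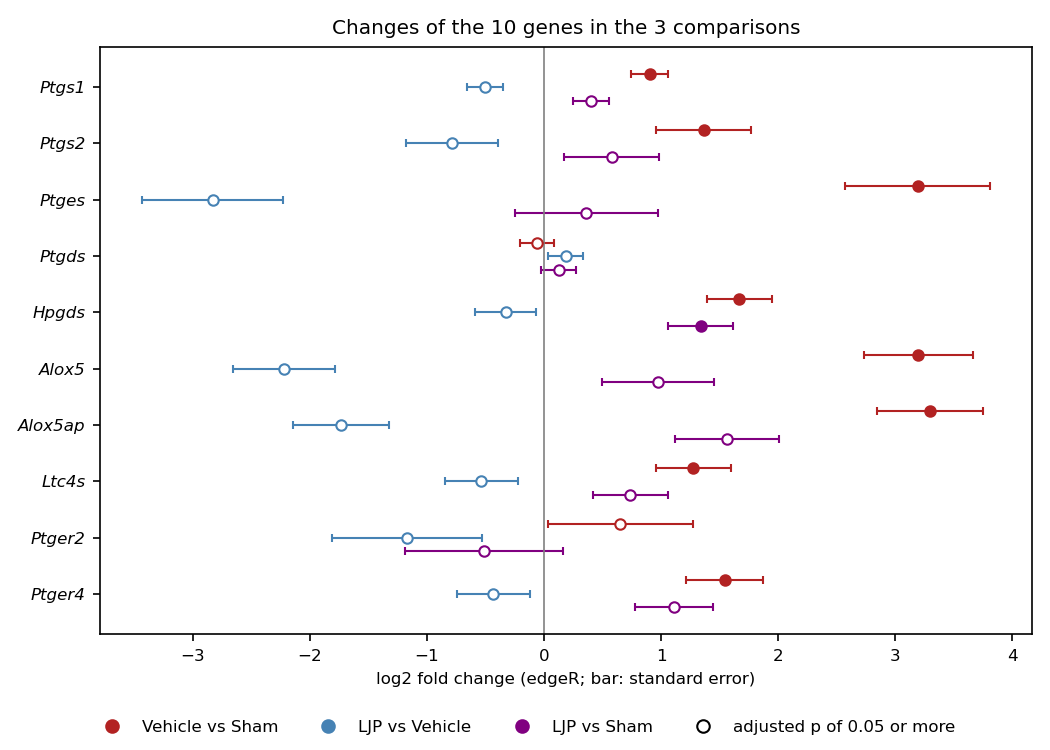
Log2 fold change of each gene with its standard error in Vehicle against Sham (red), LJP against Vehicle (blue) and LJP against Sham (purple), from edgeR over all 12 mice; filled points have an adjusted p below 0.05. Filled points appear for 8 genes in Vehicle against Sham, for none in LJP against Vehicle and for Hpgds in LJP against Sham.

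The third comparison, LJP against Sham, asked what was left of the change in treated mice. Hpgds alone was called, higher in LJP, where 3.85% of all genes were called higher and 4.75% in either direction. DESeq2 called 3 members higher, Hpgds, Alox5ap and Ptger4, beside 6.3% of all genes, and the study's cutoffs gave the same 3 in the edgeR fit, beside 5.1%. Alox5ap was 2.95-fold higher (log2 1.56, standard error 0.44, edgeR adjusted p = 0.0675) and Ptger4 2.16-fold (log2 1.11, standard error 0.33, edgeR adjusted p = 0.0820). Every LJP mouse lay above every Sham mouse in 5 members, Ptgs1, Hpgds, Alox5, Alox5ap and Ltc4s, as in 12.9% of all genes tested. Ptges differed by 0.36 (standard error 0.61, edgeR adjusted p = 0.807) and Ptgs2 by 0.58 (standard error 0.40, edgeR adjusted p = 0.489), and for both the groups overlapped. Since the comparisons share mice, their values are not independent of each other. Without Vehicle mouse 2, 3 members were called (Hpgds, Alox5ap and Ptger4), beside 13.5% of all genes. There were 2 without Vehicle mouse 3, Vehicle mouse 4 or LJP mouse 4, beside 5.43%, 4.63% and 4.19% of all genes, and 0 without Sham mouse 2 or Sham mouse 4, beside 2.45% and 2.63%.

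A wider list of 66 eicosanoid genes set the members in their pathway, and 51 of them were tested. In Vehicle against Sham, 20 were called higher and 2 lower (edgeR adjusted p below 0.05), with a median log2 fold change of 0.23, also with the gene measured against the floor set at its bound. Their share of higher calls stood against the same 22.7% of all genes, and the members' median of 1.45 was above that of the wider list. Of the genes that supply arachidonic acid, 4 of 15 tested were higher, near that share of 22.7%, and 1 was lower. The cytosolic phospholipase Pla2g4a, which releases arachidonic acid for both branches, rose from 2.22 ± 0.836 CPM to 10.7 ± 7.49 CPM (SD, n = 4; log2 2.26, edgeR adjusted p = 0.00239), with Vehicle mouse 2 highest at 21.6 CPM and a log2 fold change of 1.65 without it. The phospholipase activator Plaa differed by 0.43 on the log2 scale (edgeR adjusted p = 0.0300) and the diacylglycerol lipase Dagla by -0.31 (0.0229). Both calls were lost without a single mouse, Plaa without Vehicle mouse 1, Vehicle mouse 2, Sham mouse 2, Sham mouse 3 or Sham mouse 4 (log2 0.37, 0.30, 0.42, 0.37 and 0.41) and Dagla without Vehicle mouse 1, Sham mouse 3 or Sham mouse 4 (log2 -0.29, -0.29 and -0.27).

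Among the other prostanoid synthases and reductases, 4 of 9 were higher in Vehicle, beside 22.7% of all genes. Thromboxane synthase, Tbxas1, rose from 2.28 ± 0.925 CPM to 9.44 ± 3.12 CPM in Vehicle and stood at 7.51 ± 3.46 CPM in LJP mice (SD, n = 4). It was called in Vehicle (log2 2.05, edgeR adjusted p = 0.00162) and in LJP against Sham (log2 1.72, edgeR adjusted p = 0.0195), the latter lost without Sham mouse 1, 3 or 4 or LJP mouse 1 or 3 (edgeR adjusted p = 0.0584 to 0.0764). The aldose reductase Akr1b3, which can make prostaglandin F2α, rose by 0.34 on the log2 scale (edgeR adjusted p = 0.0178), lost without Sham mouse 2 (0.0534). Gstm2, a glutathione transferase, was at 9.84 CPM in Vehicle mouse 2 and at 1.94 to 3.02 CPM in the other Vehicle mice. Its log2 fold change of 1.66 (edgeR adjusted p = 0.0188) became 0.81 without Vehicle mouse 2 and 1.45 without Sham mouse 2, and passed in neither case (edgeR adjusted p = 0.0589 and 0.0555).

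Of the 6 genes of transport and breakdown, 4 were higher in Vehicle, beside 22.7% of all genes. Ptgr1, a prostaglandin and leukotriene reductase, rose by 2.55 on the log2 scale (edgeR adjusted p = 0.00202), and Slco2a1, the prostaglandin uptake carrier, by 2.23 (0.00661). Slco2a1 was at 10.7, 32.1, 4.25 and 5.60 CPM in Vehicle mice against 2.27 to 4.02 CPM in LJP mice, and its LJP against Vehicle difference of -2.24 did not pass (edgeR adjusted p = 0.0678). It was -1.30 without Vehicle mouse 2 (edgeR adjusted p = 0.0928), and it passed with DESeq2 (adjusted p = 0.00160), without the count filter (edgeR adjusted p = 0.0424) and without Vehicle mouse 3 or Vehicle mouse 4 (0.0111 and 0.0309). Slco2a1 was 1.28 on the log2 scale against Sham without Vehicle mouse 2. The efflux pump Abcc4, which exports prostaglandins, rose by 0.71 (edgeR adjusted p = 0.00911), and by 0.42 without Vehicle mouse 2. Hpgd, which inactivates prostaglandins, is named as the other gene of the list called in LJP against Sham (log2 1.03, edgeR adjusted p = 0.0365) and was chosen after its values were seen. Its call was lost without Sham mouse 1, 2, 3 or 4 or LJP mouse 1 or 3.

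Among the other prostanoid receptors, 3 of 7 tested were higher, beside 22.7% of all genes. Ptger1 rose by 0.50 on the log2 scale (edgeR adjusted p = 0.00946), Ptgfrn, a regulator of the prostaglandin F receptor, by 0.57 (0.0182) and the prostaglandin D2 receptor Ptgdr by 1.69 (0.0436). All 3 were highest in Vehicle mouse 2, and without that mouse they came to 0.32, 0.31 and 0.57. The first 2 still passed, whereas Ptgdr did not (edgeR adjusted p = 0.287) and was also lost when any of 7 other mice was left out, the 4 LJP mice and Sham mice 1, 2 and 4 (0.0549 to 0.109). Of the other leukotriene and lipoxygenase genes, 5 of 14 tested were higher, beside 22.7% of all genes, and 1 was lower. Dpep2, a dipeptidase that turns leukotriene D4 into E4, had 1 or 2 counts in each Sham mouse and 91, 115, 5 and 12 in Vehicle mice, at least 15.2-fold higher against the mean floor of 3 counts per library (edgeR adjusted p = 0.00265). Ggt5, which makes leukotriene D4, rose by 1.14 (edgeR adjusted p = 0.00545). Alox15, the 12/15-lipoxygenase, fell by 1.09 on the log2 scale (edgeR adjusted p = 0.00429), from 5.61 ± 0.235 CPM in Sham to 2.64 ± 0.918 CPM in Vehicle, with 4.70 ± 0.770 CPM in LJP mice (SD, n = 4).

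**Figure D5:**
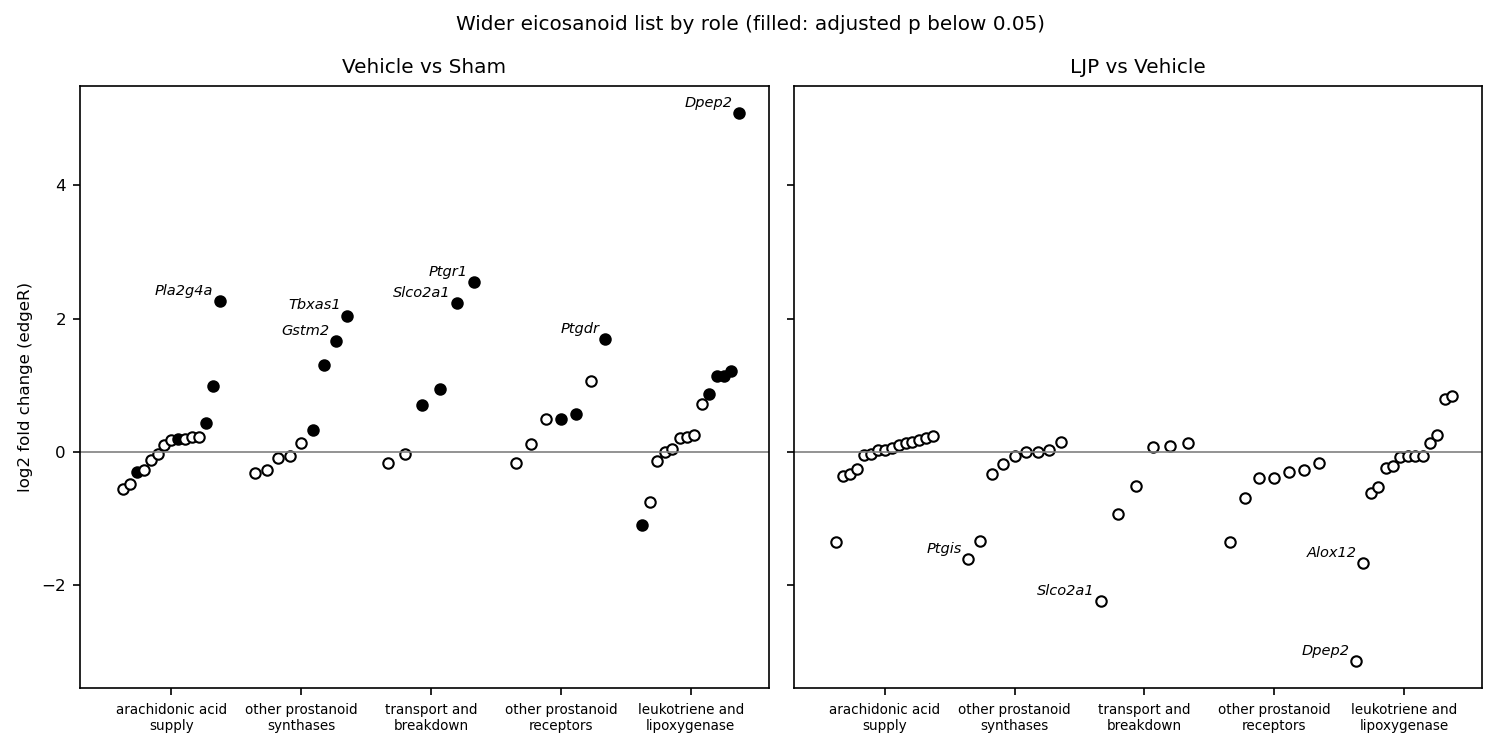
Log2 fold change (edgeR) of the 51 tested genes of the wider list, by role, in Vehicle against Sham (left) and LJP against Vehicle (right); filled points have an adjusted p below 0.05 and genes beyond 1.5 in size are named. In Vehicle against Sham 22 points are filled, in LJP against Vehicle none, and the point of Dpep2 on the left is a fitted value against a group under 3 counts per mouse and not a measured fold.

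In LJP against Vehicle none of the 51 genes passed (edgeR adjusted p below 0.05). An unadjusted p below 0.05 was reached by 13, beside 29.7% of all genes, and DESeq2 called 6, beside 14.5% of all genes. The median log2 fold change was -0.06. Without Vehicle mouse 3, 11 of the 51 were called, beside 21.8% of all genes, and without Vehicle mouse 4 there were 5, beside 12%. In LJP against Sham, 2 were called higher, Tbxas1 and Hpgd, beside 3.85% of all genes, and DESeq2 called 5 higher, beside 6.3%. The number called was 4 without Vehicle mouse 2, 3 without Vehicle mouse 1 and 1 without Sham mouse 2, beside 13.5%, 5.59% and 2.45% of all genes. It was 0 without Sham mouse 1, Sham mouse 3, LJP mouse 1 or LJP mouse 3, beside 2.27%, 2.41%, 2.93% and 2.23% of all genes, and also without Sham mouse 4, beside 2.63%.

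Genes with the most similar pattern over the 12 mice were sought for 4 members, as the mean absolute difference in log2 CPM after centering each gene on its own mean. For Alox5ap these were Tnfrsf1a (0.171), Icam1 (0.182) and Msn (0.192), beside 1.16 for the median gene. For Ptgs2 they were Aff1 (0.180), Fpgs (0.198) and Igfbp4 (0.199), beside 0.614. For Ptgs1 they were Slc16a1 (0.0887), Slc1a4 (0.0899) and Sh3bgrl3 (0.0971), beside 0.405, and for Ptgds, which varied little, Tmc7 (0.0888), Ccdc22 (0.0890) and Faah (0.0910), beside 0.276. The points share libraries and depth, so these distances are descriptions.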

How the data were processed

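Poly(A) RNA of ischemic hemispheres was sequenced as paired-end reads in 12 mice, in 1 batch per the labels. The authors deposited raw read counts per gene and mouse. The submitters' processing notes list featureCounts, DESeq2, GRCm39 and mm10, and the deposited positions match GRCm38 for 99.9% of genes. The aligner, strand setting and handling of shared reads are not given in the sources used here, so reads of overlapping genes may be split or shared. Gene length was also deposited by the authors.

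The quasi-likelihood test of edgeR 4.0.16 (R 4.3.3) was applied after filterByExpr (minimum count 10) and TMM normalization, with the 3 groups of 12 mice in one model of 17558 genes and Benjamini-Hochberg adjustment (threshold 0.05). The standard error of a log2 fold change was derived from this test, as its size divided by the square root of the F statistic. Exact permutation tests (two-sided, scipy 1.17.1) were used for the ratio; with 4 mice against 4 their smallest p is 0.0286. Figures used matplotlib 3.10.9. Floors cover counting error only. The sources do not say that mice of a group were independent beyond being separate samples; pairs within a group differed by more than sampling noise (chi-square per degree of freedom at least 2.48).

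The 10 genes, the wider list, the marker lists and the rules were chosen with earlier results of these data known. The text names all 10 genes and, in each of 5 roles, the 3 genes of the wider list ranked first by p in Vehicle against Sham, the 3 genes most like each of 4 members, and genes that overlap a member. The alternatives were DESeq2 1.42.0, RLE and library-size scaling, no count filter, a replicate block, fits limited to the pair of groups, the study's cutoffs, another pseudocount for the ratio (0.1) and leaving out each mouse in turn. Replicate numbers are not stated to pair the mice, and the correlations of same-numbered deviations lay between -0.322 and 0.114.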

Additional observations from a re-analysis of the deposited data

Results flagged for a closer look

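A value was listed here where 1 mouse of a group of 4 lay far from the other 3, as the gap to its nearest neighbor divided by the range of the group, above Dixon's critical value for 4 samples. Of 78 groups of values, 7 met this, where chance gives about 1 in 20, or 3.9. The log2 ratio of Ptgs2 to Ptgs1 was -1.32 in Sham mouse 3 and between -1.60 and -1.57 in the other Sham mice (gap 0.887 of the range). In 5 cases Vehicle mouse 2 was highest. These were Gstm2 at 9.84 CPM against 1.94 to 3.02 CPM (gap 0.863), Abcc4 at 70.5 CPM against 35.9 to 41.1 CPM (0.850), Ptger1 at 82.4 CPM against 53.8 to 55.4 CPM (0.944), Ptgfrn at 135 CPM against 71.6 to 80.8 CPM (0.855) and Ptgdr at 6.32 CPM against 0.807 to 1.29 CPM (0.912). Leptomeningeal fibroblast markers summed to 1179 CPM in Vehicle mouse 2 and to at most 295 CPM in the other mice. The largest counts of that list in Vehicle mouse 2 were the collagens Col1a1 (8331) and Col1a2 (8538). Of its 9 markers, only Igf2 (1365) and Slc22a6 (121) stayed within their Sham ranges of 1180 to 1807 and 114 to 157 counts. The part of these markers in the 5 cases was not tested. The last, Dpep2 in Sham mouse 1 (gap 0.953), was 2 counts against 1 count in each of the other Sham mice, all under the floor of 3 counts.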

How the results depend on the processing

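Of the 10 genes, 8 were called in Vehicle against Sham with each scaling, and leaving out single mice gave 7 to 8. With scaling by library size alone, 67.3% of all calls in that comparison were higher (4737 of 7036), against 56.8% (3982 of 7014), and all 10 members then lay above 0, Ptgds by 0.0159. Other settings moved counts. For LJP against Vehicle, 4 members were called with DESeq2, 3 without the count filter, 3 at the study's cutoffs and 0 to 4 when single mice were left out. For LJP against Sham these were 3, 2, 3 and 0 to 3, with 6 in a fit of only the 2 groups compared. In the wider list, 13 of the 51 genes tested were called in Vehicle against Sham at the study's cutoffs and 15 to 25 with single mice left out. For LJP against Vehicle the wider list gave 6 with DESeq2, 3 without the filter, 6 at the study's cutoffs and 0 to 11 with single mice left out. For LJP against Sham it gave 5 with DESeq2, 14 with only the 2 groups, 4 at the study's cutoffs and 0 to 4 with single mice left out. The counts of the members and the wider list are to be read beside those over all genes (17558 tested, 30210 without the filter). Over all genes, Vehicle against Sham gave 3807 at the study's cutoffs and 5297 to 8120 with single mice left out. LJP against Vehicle gave 2399 with DESeq2, 593 without the filter, 2 with only the 2 groups, 1223 at the study's cutoffs and 3 to 3836 with single mice left out. LJP against Sham gave 1530 with DESeq2, 833 without the filter, 4062 with only the 2 groups, 1036 at the study's cutoffs and 392 to 2377 with single mice left out. The replicate number as a block, which nothing shows to pair the mice, gave 2 genes for LJP against Vehicle, 464 for LJP against Sham and 7 members for Vehicle against Sham, where Ptgs2 (log2 1.26, edgeR adjusted p = 0.0524) was not called. In the ratio of Ptgs2 to Ptgs1, leaving out single mice gave -0.108 to 0.410 for Vehicle against Sham, -0.298 to 0.220 (0.181 without LJP mouse 1) for LJP against Vehicle and -0.0679 to 0.392 for LJP against Sham. Ptgds in Vehicle against Sham lay between -0.188 and 0.0557 with single mice left out. Slco2a1 in LJP against Sham (log2 -0.01) turned to 0.0439 with library size alone, 0.00516 without the filter and 0.050 with the block, and lay between -0.237 and 0.119 with single mice left out. The cause of these changes was not tested. All 10 members passed the count filter, so the test planned for members under it had no gene. Ptger2 and Dpep2 are limited by low counts, and Ptger2 also varied between mice of a group, with 3 to 17 counts in Sham and 1 to 14 in LJP mice.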

Other observations

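Of the 15 genes of the wider list that the count filter removed, 3 reached 50 counts in at least 1 mouse, and they were chosen for description after their values were seen. Ltb4r1, the high-affinity receptor of leukotriene B4 on neutrophils and other leukocytes, had 2, 7, 2 and 7 counts in Sham, 115, 70, 6 and 6 in Vehicle and 13, 4, 7 and 5 in LJP mice. Fpr2, a formyl peptide receptor that also binds lipoxin A4, had 0, 2, 0 and 2 counts in Sham, 100, 20, 2 and 0 in Vehicle and 1, 1, 1 and 0 in LJP mice. Ptgir, the prostacyclin receptor, had 0, 1, 1 and 5 counts in Sham, 24, 65, 8 and 3 in Vehicle and 5, 6, 6 and 3 in LJP mice. All 3 were high in Vehicle mice 1 and 2, and Ltb4r1 and Fpr2 were highest in Vehicle mouse 1, the mouse with the highest neutrophil marker sum. The part of those cells was not tested, and no test of these genes was made. The other 12 genes removed had at most 20 counts in any mouse.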
